A study of Mus musculus with 2 samples.

Results

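Inpp4b, Inpp5d, Sgk3, Pik3cd, Pik3r1, Pik3r3 and Pik3ip1 are 7 genes of phosphoinositide signalling, selected by symbol among the 32285 gene rows of a single-cell RNA matrix of fetal mouse lung, and all 7 were found. They were chosen with the DEX against PBS values of type 2 innate lymphoid cells (ILC2s) in view, so that contrast is given for them as a description, with no test. ILC2s reside in tissues such as the lung, bear the IL-33 receptor ST2 and are an early source of type 2 cytokines. Live CD45+ Lin- ST2+ cells were sorted from lungs of C57BL/6J wild-type fetuses at gestation day 18 and profiled as 5′ single-cell libraries. From gestation day 12 the drinking water of the mothers held 1.3 µg/ml of the synthetic glucocorticoid dexamethasone (DEX), or PBS in controls. Lungs were pooled by litter and each litter carried 1 hashtag antibody, with 8 and 9 fetuses in the litters DEX-1 and DEX-2 and 5 and 8 in PBS-1 and PBS-2, so a litter value is a mean over pooled fetuses and 2 litters stand for each group.

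Phosphoinositide 3-kinases (PI3Ks) add a phosphate to a membrane lipid and so make PIP3, the docking site of kinases such as Akt. Inpp5d (SHIP1) removes one phosphate from PIP3 and leaves a bisphosphate lipid, and Inpp4b in turn removes a phosphate from that lipid and leaves PI3P, to which the kinase Sgk3 binds. Pik3cd encodes the leukocyte catalytic subunit, Pik3r1 and Pik3r3 encode regulatory subunits that hold and recruit such catalytic subunits, and Pik3ip1 is a membrane protein that inhibits PI3K.

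The 5′ ends of these genes are shown because the comparison is between litters with and without a glucocorticoid receptor agonist. In the GENCODE M21 annotation (GRCm38), Inpp4b (ENSMUSG00000037940) spans 785 kb, from 81342556 to 82127914 on the plus strand of chromosome 8, and annotated exons cover 1.66% of that span. RefSeq (GRCm38.p6) gave 11 start-site windows, from 250 bases before to 50 after a start, for 6 of the 7 genes, and none was used for Sgk3. The glucocorticoid receptor half-site AGAACA, searched as every motif here on both strands, was in 1 of the 11 windows, a Pik3cd window, against 19.0% of all 32851 windows of this length. The full palindromic site, which is the half-site, any 3 bases and the half-site of the other strand, was in none of the 11 and in 0.00913% of all windows. The letters AGATAA, known to be bound by GATA factors, were in another Pik3cd window and in 11.2% of all windows, and the letters GTAAACA of FOXO factors were in none of the 11 and in 3.65% of all. These motifs do not overlap one another in the windows shown, and a match is a description of letters, not of binding. The Inpp4b window, chr8:81342312-81342611 on the plus strand, had 68.3% G or C against a median of 52.7% over all windows and held none of these motifs. The 2 Pik3cd windows with a match lie on the minus strand at chr4:149663267-149663566 and chr4:149698659-149698958, with the half-site starting 241 bases before one start and the GATA letters starting 14 bases after the other. Each is written 5′ to 3′ on the strand of its gene, with the motif letters in capitals.
Inpp4b: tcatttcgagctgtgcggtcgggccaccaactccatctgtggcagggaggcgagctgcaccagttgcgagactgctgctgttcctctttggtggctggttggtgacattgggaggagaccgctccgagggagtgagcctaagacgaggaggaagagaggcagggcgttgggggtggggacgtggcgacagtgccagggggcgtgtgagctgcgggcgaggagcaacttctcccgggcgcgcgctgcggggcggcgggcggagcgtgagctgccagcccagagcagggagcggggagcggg
Pik3cd, half-site: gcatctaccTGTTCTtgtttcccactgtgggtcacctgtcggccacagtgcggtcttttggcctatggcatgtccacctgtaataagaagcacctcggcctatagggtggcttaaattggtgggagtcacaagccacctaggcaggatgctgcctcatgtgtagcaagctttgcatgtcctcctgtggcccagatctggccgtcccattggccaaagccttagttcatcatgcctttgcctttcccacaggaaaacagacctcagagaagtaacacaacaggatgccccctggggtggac
Pik3cd, GATA letters: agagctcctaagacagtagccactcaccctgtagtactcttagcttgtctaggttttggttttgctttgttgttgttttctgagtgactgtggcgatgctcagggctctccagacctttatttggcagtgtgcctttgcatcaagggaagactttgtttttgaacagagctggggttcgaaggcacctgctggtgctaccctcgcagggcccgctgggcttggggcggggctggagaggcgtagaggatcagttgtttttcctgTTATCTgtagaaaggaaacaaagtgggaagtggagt

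Of 7268 singlets with 1 hashtag (1737 to 1890 a litter), 2074 (28.5%) were ILC2-like and 3225 (44.4%) basophil or mast-like. The other named classes held 455 epithelial-like, 316 endothelial-like, 199 B-like and 201 mesenchymal-like cells, and 798 cells in 3 clusters stayed unnamed. Epithelial, endothelial and mesenchymal cells are not CD45+, so the sort let other cells through. Levels are UMI counts summed per class and litter and expressed as CPM, the UMIs of a gene per 1000000 UMIs of that sum, from 3800000 to 5203697 UMIs a litter in ILC2-like and from 6174906 to 8587031 in basophil or mast-like cells. All 9 ILC2 markers were detected in ILC2-like cells, with summed levels of 3972 to 4340 CPM a litter, while the basophil or mast-like class had 699 to 809 CPM. The T cell marker list summed to 482 to 559 CPM in ILC2-like cells, and 1 of the 3 ILC2-like clusters was led by Txk, Cd27, Tcf7, Tcrg-C4 and Lck, which T cells also use. A summed level cannot tell more cells with the RNA from more RNA per cell, so shares of cells are given beside it.

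Inpp4b was lower in ILC2-like cells of both DEX litters than of both PBS litters. DEX-1 had 284.6 CPM and DEX-2 had 332 CPM, while PBS-1 had 553 CPM and PBS-2 had 556 CPM. The PBS litters lay close together and the DEX litters well below them, with no overlap. The means were 308.5 ± 33.8 CPM in DEX and 555 ± 2.12 CPM in PBS (SD, n = 2 litters each), a 1.79-fold higher level in PBS and a log2 fold change of -0.84 ± 0.08 (SE, edgeR). After thinning each cell to 2000 UMIs, 43.4% and 48.6% of DEX cells and 62.5% and 61.3% of PBS cells held an Inpp4b UMI. The unthinned share over all ILC2-like cells was 84.9% at a median of 7179 UMIs per cell, the thinned share 54.0%. In B-like cells the thinned share was 5.95% and the unthinned 13.1%, at a median of 3528 UMIs. The B-like cells were in the same suspension as the others and so shared its free RNA. Their basophil or mast cell markers summed to 125 and 1365 CPM in DEX and to 118 and 3096 CPM in PBS. With such uneven litters, the B-like share is no measure of free RNA alone.

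Markers of other cell types were also summed in ILC2-like cells. All 11 of the basophil or mast cell list, the other class high in Inpp4b, were detected there, and they summed to 405 and 544 CPM in the DEX litters and to 413 and 400.3 CPM in the PBS litters. In the basophil or mast-like class they summed to 39910 to 48740 CPM. This list overlapped between the groups. The epithelial list, all 7 of which were detected and which includes Epcam, was lower in DEX without overlap, at 277 and 269 CPM against 328 and 321 CPM in PBS. The B cell list (43.8 and 50.8 against 59.4 and 56.9 CPM) and the macrophage or monocyte list (52.5 and 58.4 against 67.8 and 59.2 CPM) were likewise lower. The endothelial list (46.4 and 46.6 against 37.6 and 41.9 CPM), the mesenchymal list (12.3 and 14.5 against 7.87 and 9.61 CPM), the dendritic cell list (6.59 and 7.37 against 4.57 and 3.84 CPM) and a list of basophil genes (42.8 and 73.9 against 37.6 and 30.7 CPM) were higher in DEX without overlap. The part of these lists in the Inpp4b difference was not tested. Of 10640 genes tested in ILC2-like cells, 1.20% were called lower in DEX at an edgeR adjusted p under 0.05 and 1.12% higher. Since the 7 genes were chosen on this contrast, no call is given for them.

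The difference in Inpp4b was present in each of the 5 ILC2-like states with litter values. These states are parts of the cells and litters on which the genes were chosen, so their agreement adds no support. ILC2-like cells were reclustered into 6 states without any of the 7 genes, and 5 states held at least 20 cells in every litter. The state led by Ctla2b, Ctla2a, Calca, Epcam and Rnf128 (748 cells) had 425 and 516 CPM in DEX and 808 and 805 CPM in PBS. The state led by Atp4a, Pla2g7, Slc38a5, Gata1 and Hdc (210 cells), of which Hdc is also a mast cell marker, had 382 and 399 CPM in DEX and 798 and 751 CPM in PBS. In the state led by Ung, E2f1, Cdca7, Mcm2 and Gsto1 (327 cells), genes of DNA replication among them, Inpp4b was at 244 and 305 CPM in DEX and 425.8 and 426 CPM in PBS.

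The 2 remaining states had lower Inpp4b. In the state led by the mitotic genes Ube2c, Cenpf, Plk1, Nusap1 and Hmmr (406 cells) the DEX litters had 227 and 208 CPM and the PBS litters 324 and 375 CPM. In the state led by Cd7, Ms4a4b, Lgals3, Ripor2 and Tcf7 (347 cells) they had 133 and 209 CPM against 213 and 261 CPM. In all 5 states both DEX litters lay below both PBS litters, most narrowly in the Cd7 state. The share of all genes that do so within a state was not computed, so this is a description. The mean log2 difference within a state ran from -0.47 in the Cd7 state to -0.999 in the Atp4a state, and was -0.71 when the 5 states counted equally, smaller in size than that of the summed cells. The Cd7 state, low in Inpp4b, made up 20.7% and 23.7% of ILC2-like cells in DEX-1 and DEX-2 and 12.9% and 10.7% in PBS-1 and PBS-2, and the Ctla2b state, high in Inpp4b, 32.4% and 33.4% against 41.2% and 37.3%.

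**Figure D1:**
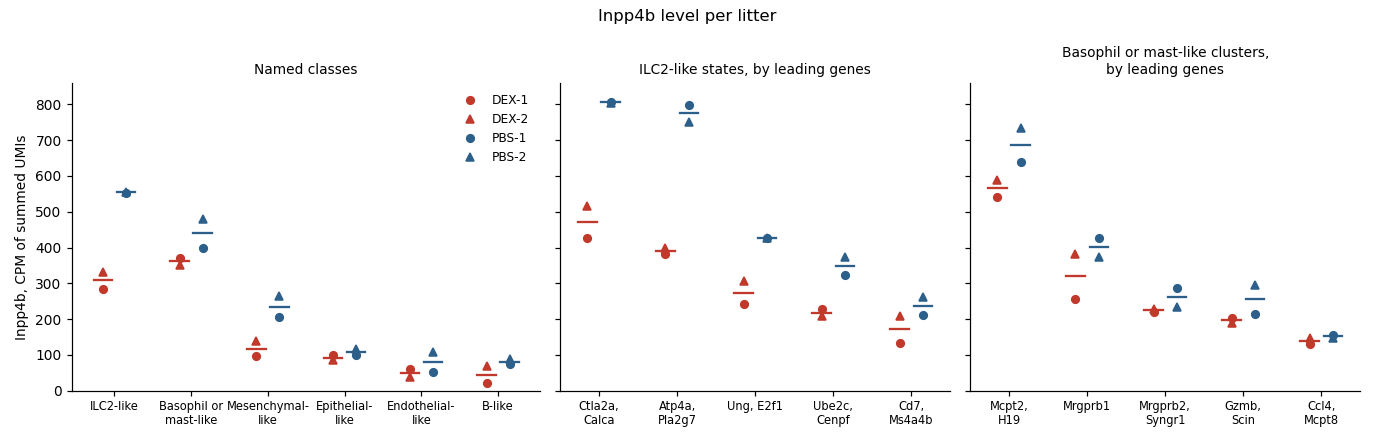
Inpp4b in CPM of summed UMIs (linear axes from 0) for each litter in the 6 named classes, 5 ILC2-like states and 5 basophil or mast-like clusters, with DEX litters in red, PBS litters in blue and a bar at each group's mean. In ILC2-like cells the DEX litters sit at 284.6 and 332 CPM and the PBS litters at 553 and 556 CPM, and the DEX litters are the lower ones in each ILC2-like state.

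A sixth ILC2-like state of 36 cells stood apart in Inpp4b. It was led by Plcl1, Dmxl1, Hs6st2, Abca1 and Trps1 and was shallow, with a median of 2274 UMIs per cell. Inpp4b took 459 UMIs there, 4737 CPM over the pooled cells, against 660 CPM over the pooled cells of the Ctla2b state. Pik3r1 was also high in it, at 444 CPM from 43 UMIs, and Inpp5d at 330 CPM from 32 UMIs. With 5 to 13 cells a litter no litter values are given. Without these cells the log2 fold change of Inpp4b in ILC2-like cells was -0.85. Whether reads in introns were counted is not given in the sources used here, which bears on a gene with so little of its span in exons.

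Across classes, Inpp4b was highest in ILC2-like cells (432 ± 143 CPM, SD, n = 4 litters) and basophil or mast-like cells (401 ± 56.4 CPM), whose litter ranges overlapped. It was next in mesenchymal-like cells (176 ± 74.2 CPM), below the lowest basophil or mast-like litter. Epithelial-like (100.1 ± 12.1 CPM), endothelial-like (64.9 ± 30.1 CPM) and B-like cells (62.8 ± 29.1 CPM) followed, each overlapping its neighbour in the order. The mesenchymal-like cells had 96.4 and 138 CPM in DEX and 205 and 265 CPM in PBS, again without overlap. In the same cells the basophil or mast cell marker list summed to 6968 and 8132 CPM in DEX and to 10156 and 16534 CPM in PBS, with all 11 markers detected, and its part in that difference was not tested. Their own mesenchymal list summed to less in every litter, to 3499 and 3813 CPM in DEX and 4417 and 2457 CPM in PBS. In B-like cells both DEX litters were also lower, at 20.9 and 68.7 CPM against 73.5 and 88.2 CPM in PBS (50 UMIs, of which 3 in DEX-1). Their ILC2 marker list summed to 27.9 and 49.1 CPM in DEX and to 377 and 113 CPM in PBS. Their basophil or mast cell list, given above, overlapped between the groups. The part of these lists in the B-like difference was not tested. Epithelial-like cells had 98.5 and 86.4 CPM in DEX and 99.5 and 116 CPM in PBS. The unnamed cluster led by Car4, Scn7a, Ryr2, Prx and Piezo2 had 50.3 and 55.4 CPM in DEX and 61.4 and 72.5 CPM in PBS. Endothelial-like cells, at 61.4 and 38.6 CPM in DEX and 52.0 and 108 CPM in PBS, overlapped, as did the other unnamed clusters. The lowest level of all was 14.8 ± 5.31 CPM, in the unnamed cluster led by Prtn3, Gm15915, Mfsd2b, Muc13 and Dnph1 (223 cells).

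Within basophil or mast-like cells Inpp4b differed by cluster. The cluster led by Mcpt2, H19, Tpsab1, Atp8a2 and Fgfr1 (1522 cells) had 626 ± 82.0 CPM (SD, n = 4 litters), above every litter of the other clusters. The mast-like cluster led by Mrgprb1, Mrgprx2, Gpr141b, Mrgprb2 and Mcpt4 (133 cells) had 360 ± 73.0 CPM, and those led by Mrgprb2, Syngr1, Cma1, 1700006J14Rik and Rarres1 (648 cells) and by Gzmb, Scin, Trbv13-2, Nkg7 and Angpt1 (432 cells) had 243 ± 30.7 and 226 ± 48.2 CPM. The basophil-like cluster led by Ccl4, Mcpt8, Acod1, Ccl3 and Ccl9 (490 cells) had the lowest level, 145 ± 10.5 CPM, with every litter below those of the other clusters. Inpp4b was thus highest in the Mcpt2 cluster and lowest in the basophil-like cluster, as a description of clusters drawn from the same cells. The Cd7 state of ILC2-like cells, at 204 ± 52.9 CPM, overlapped the basophil-like cluster.

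In basophil or mast-like cells, which come from the same litters, the DEX litters had 372 and 351 CPM of Inpp4b and the PBS litters 399.5 and 480 CPM. Whether values of this class also bore on the choice of the genes is not known. Both DEX litters were again the lower ones, but the nearest litters were close. The log2 fold change was -0.27 ± 0.12 (SE), which misses the threshold (edgeR adjusted p = 0.999). It was -0.12 without PBS-2 and -0.39 without PBS-1. No gene was called among the 11497 tested in this class (0.00% in each direction), while 443 genes had an unadjusted p under 0.05 and DESeq2 called 8. Whether the difference in Inpp4b was larger in ILC2-like than in basophil or mast-like cells was not tested. Within the clusters, both DEX litters were below both PBS litters in 4 of 5, the exception being the Mrgprb1 cluster, with 257 and 383 CPM in DEX and 428 and 374 CPM in PBS. The clusters are parts of the same cells and litters, and the share of all genes within a cluster was not computed, so nothing is read from that count.

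Inpp5d, the phosphatase that acts before Inpp4b, differed little between the groups. In ILC2-like cells it was at 79.8 and 85.0 CPM in DEX-1 and DEX-2 and at 94.5 and 88.2 CPM in PBS-1 and PBS-2. The DEX litters were lower by a narrow margin, with a log2 fold change of -0.14 ± 0.09 (SE), which was -0.03 after thinning to 2000 UMIs and -0.06 with equal weights for the states. The thinned shares of cells with a UMI overlapped, at 15.3% and 18.0% in DEX and 15.9% and 16.4% in PBS. The basophil or mast-like class had 212 and 195 CPM in DEX and 217 and 244 CPM in PBS (log2 fold change -0.17 ± 0.11, edgeR adjusted p = 0.999, and -0.06 without PBS-2 or -0.11 without DEX-2). By class, Inpp5d was highest in basophil or mast-like (217 ± 20.4 CPM) and B-like cells (203 ± 34.4 CPM), which overlapped, and both lay above ILC2-like cells (86.9 ± 6.15 CPM). Mesenchymal-like cells, which should lack this leukocyte gene, had 73.2 ± 13.1 CPM and overlapped ILC2-like cells. They also held the mast cell markers given above, which summed higher than their own list, so they are no leukocyte-free reference. Epithelial-like cells had 15.3 ± 4.48 CPM. The thinned share of cells with an Inpp5d UMI was 16.3% in ILC2-like and 13.7% in mesenchymal-like cells (unthinned 50.4% and 38.8%, medians of 7179 and 9710 UMIs). The thinned share was 8.17% in endothelial-like and 2.66% in epithelial-like cells (unthinned 35.1% and 16.9%, medians of 10608 and 17512 UMIs), both below that of ILC2-like cells. In endothelial-like cells the basophil or mast cell list summed to 3299 and 5728 CPM in DEX and 701 and 7551 CPM in PBS. Their own list summed to 4977 and 4841 CPM in DEX and 5924 and 4358 CPM in PBS.

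Among basophil or mast-like clusters Inpp5d was at 303 ± 28.5 CPM in the Mcpt2 cluster and 294 ± 16.9 CPM in the Mrgprb1 cluster, which overlapped. It was at 172 ± 13.0 CPM in the Gzmb cluster, at 147 ± 10.0 CPM in the Syngr1 cluster and at 63.4 ± 6.77 CPM in the basophil-like cluster, each apart from its neighbours. Inpp4b and Inpp5d thus shared their highest and lowest cluster. In the ILC2-like states with litter values Inpp5d ran only from 76.5 to 99.2 CPM, and each state overlapped its neighbour in the order. Every litter of the Ctla2b state, the lowest at 88.0 CPM, lay above those of the Ung and Ube2c states, which reached 85.1 and 87.0 CPM.

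Sgk3, the kinase that binds the lipid left by Inpp4b, was at a low level. In ILC2-like cells it was at 23.6 and 21.6 CPM in DEX-1 and DEX-2 and at 23.4 and 30.7 CPM in PBS-1 and PBS-2. The groups overlapped, with a log2 fold change of -0.26 ± 0.17 (SE), which was -0.03 without PBS-2 and -0.44 without PBS-1. It was lower in basophil or mast-like cells, at 6.27 and 5.36 CPM in DEX and 6.64 and 3.13 CPM in PBS, from 146 UMIs (log2 fold change 0.26 ± 0.36, edgeR adjusted p = 0.999). Among ILC2-like states the Ung and E2f1 state had 44.6 ± 4.30 CPM, above every litter of the next state, and the Atp4a state 10.3 ± 4.96 CPM, below every litter of the state before it. Outside the named classes, Sgk3 was at 52.5 ± 10.4 CPM in the unnamed cluster led by S100a8, Wfdc17, Ear2, Mcemp1 and Cybb (250 cells), and it was at 37.7 ± 18.5 CPM in B-like cells from 27 UMIs, where DEX-1 alone reached 62.7 CPM.

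Pik3cd, the catalytic subunit, was lower in ILC2-like cells of both DEX litters. It was at 33.6 and 29.7 CPM in DEX-1 and DEX-2 and at 50.5 and 41.9 CPM in PBS-1 and PBS-2. The litters did not overlap, and the log2 fold change was -0.52 ± 0.14 (SE). The widest gap was in the Ctla2b state, with 23.3 and 26.2 CPM in DEX and 51.3 and 50.3 CPM in PBS, a log2 difference of -0.96. In the Cd7 state 52.8 and 57.2 CPM in DEX overlapped the 75.4 and 50.5 CPM in PBS. The groups also overlapped in the Ung state, at 36.3 and 20.3 CPM in DEX and 52.4 and 34.6 CPM in PBS. They did so too in the Atp4a state, at 6.88 and 24.3 CPM against 27.6 and 19.8 CPM, from 24 UMIs. Among basophil or mast-like cells Pik3cd was at 25.7 and 31.2 CPM in DEX and 35.3 and 27.1 CPM in PBS, with overlap (log2 fold change -0.11 ± 0.17, edgeR adjusted p = 0.999). By class it was highest in B-like cells (54.2 ± 13.0 CPM), which overlapped ILC2-like cells (38.9 ± 9.24 CPM), and these overlapped basophil or mast-like cells (29.8 ± 4.33 CPM). Mesenchymal-like cells, which should lack the gene but held the mast cell markers given above, had 19.9 ± 1.99 CPM. Their thinned share with a UMI was 3.05% against 8.20% in ILC2-like cells (unthinned 17.4% and 26.3%). The basophil-like cluster had 65.5 ± 15.7 CPM, above every litter of the other basophil or mast-like clusters, the reverse of Inpp4b and Inpp5d.

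Pik3r1, the main regulatory subunit, was at 119 and 109 CPM in DEX-1 and DEX-2 and at 164 and 136 CPM in PBS-1 and PBS-2 in ILC2-like cells. The DEX litters were again the lower ones, with a log2 fold change of -0.38 ± 0.10 (SE). Within states the log2 difference ran from -0.42 in the Atp4a state to 0.03 in the Cd7 state, so the Cd7 state did not share its direction. For Pik3r1 the basophil or mast-like class had 71.4 and 59.0 CPM in DEX and 82.6 and 80.7 CPM in PBS, without overlap, and its log2 fold change was -0.31 ± 0.12 (SE), which misses the threshold (edgeR adjusted p = 0.999, unadjusted p = 0.038), and was -0.18 without DEX-2. By class Pik3r1 was highest in ILC2-like cells (132 ± 24.0 CPM), which overlapped mesenchymal-like cells (99.9 ± 17.8 CPM), and lowest in epithelial-like cells (22.0 ± 3.05 CPM). The Ctla2b and Atp4a states, high in Inpp4b, were also those highest in Pik3r1, at 171 ± 34.5 and 182 ± 30.5 CPM, and the Cd7 state was lowest in both genes, at 83.3 ± 16.3 CPM for Pik3r1.

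Pik3r3, a second regulatory subunit, was scarcely detected in lymphoid or mast cells. In ILC2-like cells it had 45 UMIs in all, with 3.40 and 1.84 CPM in DEX-1 and DEX-2 and 1.52 and 3.07 CPM in PBS-1 and PBS-2. The litters overlapped and the log2 fold change of 0.18 ± 0.49 (SE) has no clear sign. The basophil or mast-like class had 8 UMIs and fell under the filter on low counts. Among the named classes Pik3r3 was highest in endothelial-like cells (36.4 ± 7.72 CPM), then in epithelial-like cells (13.2 ± 3.29 CPM), and each lay apart from the next class. The unnamed cluster led by Car4, Scn7a, Ryr2, Prx and Piezo2 had 19.4 ± 1.66 CPM from 242 UMIs, above every epithelial-like litter. Endothelial-like cells had 25.7 and 35.8 CPM in DEX and 42.3 and 41.9 CPM in PBS, from 168 UMIs.

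Pik3ip1, the PI3K inhibitor, was at 20.0 and 9.74 CPM in DEX-1 and DEX-2 and at 18.5 and 18.1 CPM in PBS-1 and PBS-2 in ILC2-like cells. Only DEX-2 lay apart from the other litters, and the log2 fold change of -0.26 ± 0.25 (SE) turned to 0.12 without DEX-2. The same litter was the lowest in basophil or mast-like cells, with 20.7 CPM against 37.6 CPM for DEX-1, 31.6 CPM for PBS-1 and 33.0 CPM for PBS-2 (log2 fold change -0.15 ± 0.26, edgeR adjusted p = 0.999, and 0.24 without DEX-2). By class Pik3ip1 was highest in B-like cells (69.9 ± 27.6 CPM, from 52 UMIs), and every class overlapped its neighbour in the order. The 2 ILC2-like states of cycling cells had the lowest means, at 8.11 ± 2.62 CPM in the Ube2c state and 10.1 ± 1.81 CPM in the Ung state. The means were 22.3 to 29.2 CPM in the other 3 with litter values. Of these the Ctla2b state (22.3 ± 11.2 CPM) overlapped both cycling states, with 7.34 CPM in DEX-2 from 7 UMIs.

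**Figure D2:**
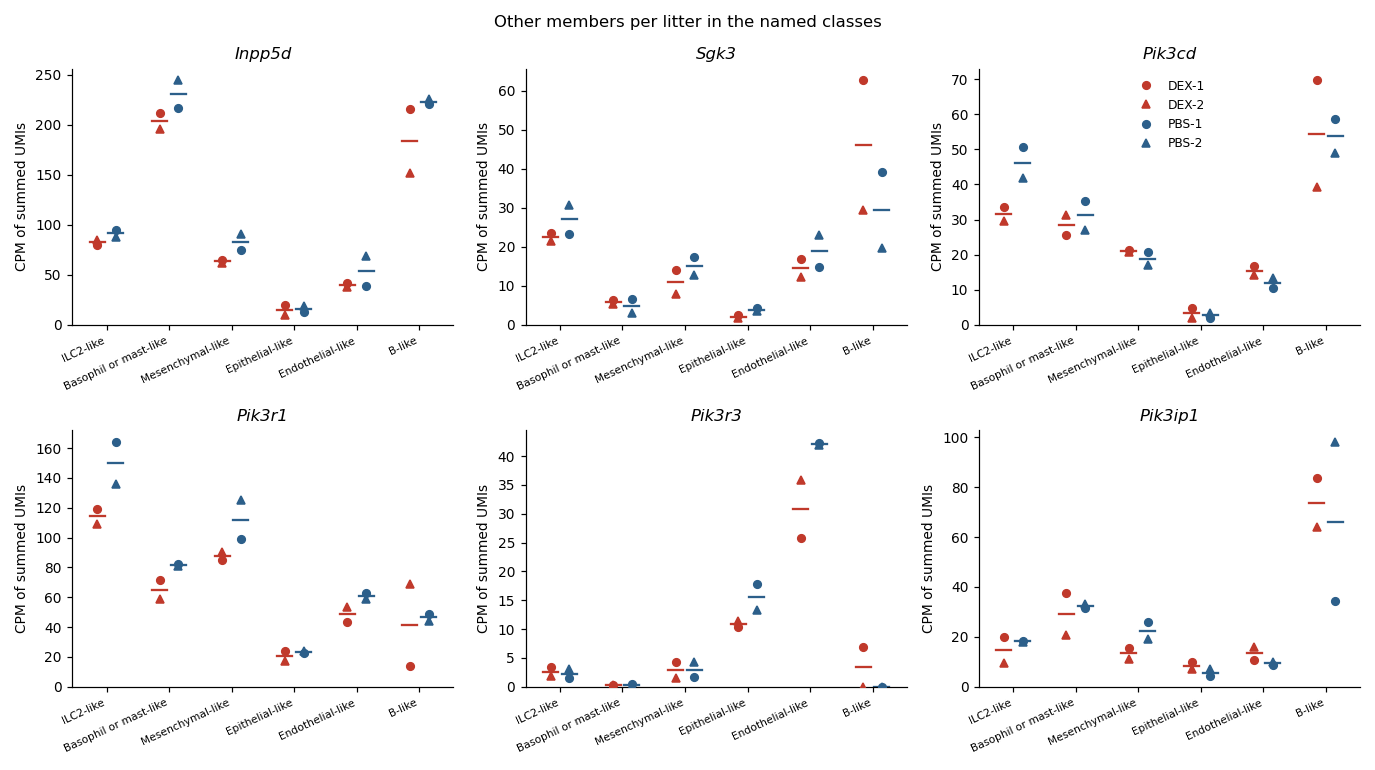
Level of the other 6 genes in CPM of summed UMIs (linear axes from 0, each panel on its own scale) for each litter in the 6 named classes, with DEX litters in red, PBS litters in blue and a bar at each group's mean. Inpp5d is highest in basophil or mast-like and B-like cells, Pik3r1 in ILC2-like cells and Pik3r3 in endothelial-like cells.

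Over the 7 genes in ILC2-like cells, 6 log2 fold changes were below 0, beside 49.3% of all genes tested, and the median was -0.26, beside 0.00 over all genes tested. For 4 of the 7, Inpp4b, Inpp5d, Pik3cd and Pik3r1, both DEX litters lay below both PBS litters, as they did for 22.2% of all genes tested, and both lay above for none of them, as for 20.3% of all. Since the genes were chosen on this contrast, these counts are a description. In basophil or mast-like cells 5 of the 6 tested were below 0, beside 50.0% of all genes, with a median of -0.16 beside 0.00. There both DEX litters lay below both PBS litters for Inpp4b, Inpp5d and Pik3r1 (3 of 6), as for 18.0% of all genes, and above for none, as for 12.8%. The 2 classes come from the same litters, so their values are not independent. With 1 litter left out, the log2 fold change in ILC2-like cells ran from -0.66 to -0.40 for Pik3cd and from -0.51 to -0.25 for Pik3r1, in each case nearest 0 without PBS-1.

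**Figure D3:**
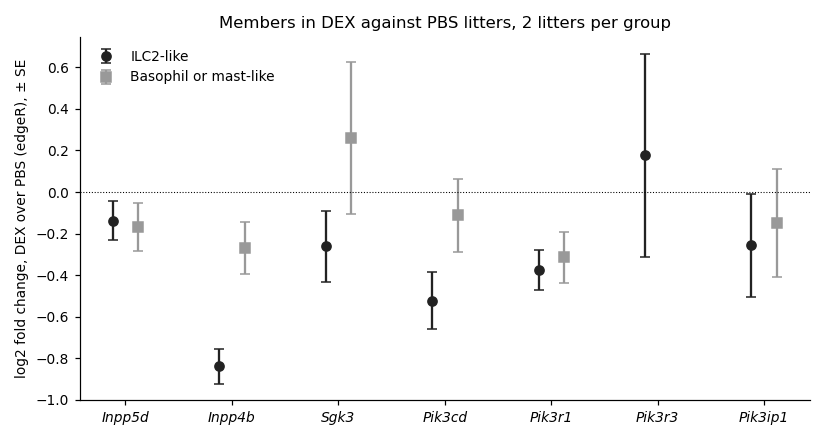
Log2 fold change of DEX over PBS litters (edgeR, bars ± SE, 2 litters per group) for the 7 genes in ILC2-like cells (black circles) and the 6 tested in basophil or mast-like cells (grey squares). Inpp4b in ILC2-like cells is the lowest point, at -0.84, against -0.27 in basophil or mast-like cells.

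**Figure D4:**
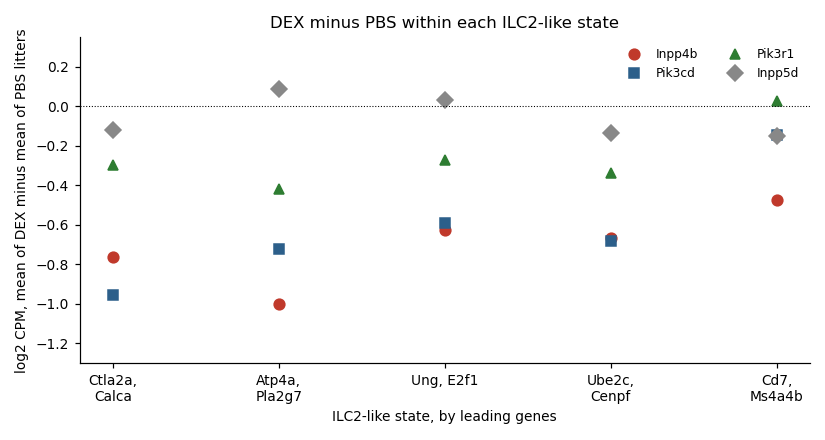
Mean of the DEX litters minus mean of the PBS litters in log2 CPM (prior count of 2) within each of 5 ILC2-like states, for Inpp4b, Pik3cd, Pik3r1 and Inpp5d. Inpp4b is below 0 in each state, from -0.47 to -0.999, while Pik3r1 is at 0.03 in the Cd7 state.

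A list of 64 other genes of the pathway, chosen with earlier results of these data known, was set beside these 7. In ILC2-like cells 56 of them were tested. Over all 10640 genes tested there, 1.12% were called higher in DEX and 1.20% lower. Sgk1, a kinase of the same family as Sgk3 and a known glucocorticoid target, was the only one of the 56 called, higher in DEX. Nothing is read from Sgk1 as a count of 1. It was at 55.3 and 61.8 CPM in DEX-1 and DEX-2 and at 38.9 and 43.6 CPM in PBS-1 and PBS-2, with a log2 fold change of 0.50 ± 0.12 (SE, edgeR adjusted p = 0.0446). The call held without PBS-2 (0.00834) and was lost without DEX-1, DEX-2 or PBS-1 (edgeR adjusted p of 0.0747, 0.174 and 0.117), and also without the cycling states or after thinning (0.238 and 0.544), with the smallest state left out (0.0511), with DESeq2 (adjusted p = 0.361) and with limma-voom (adjusted p = 0.0523). Sgk1 in basophil or mast-like cells was at 91.2 and 86.6 CPM in DEX and 89.9 and 121 CPM in PBS, with overlap (log2 fold change -0.23 ± 0.15, edgeR adjusted p = 0.999).

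The next 4 of the list by p in ILC2-like cells did not pass. Pip5k1b, a kinase that makes the PI3K substrate, was at 17.2 and 14.7 CPM in DEX and 24.6 and 24.2 CPM in PBS (log2 fold change -0.59 ± 0.16, edgeR adjusted p = 0.0891). The catalytic subunit Pik3cb was at 10.4 and 10.5 CPM in DEX and 16.3 CPM in both PBS litters (log2 fold change -0.63 ± 0.19, edgeR adjusted p = 0.132). The catalytic subunit Pik3cg was at 14.5 and 9.74 CPM in DEX and 22.1 and 17.1 CPM in PBS (log2 fold change -0.65 ± 0.21, edgeR adjusted p = 0.179). The adaptor Gab2 was at 13.8 and 17.9 CPM in DEX and 10.7 and 10.2 CPM in PBS (log2 fold change 0.60 ± 0.21, edgeR adjusted p = 0.209). Of the 56, 29 log2 fold changes were below 0 and 27 above, with a median of -0.01.

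In basophil or mast-like cells 62 of the 64 were tested and none was called by edgeR or DESeq2, while 2, Pik3ap1 and Inpp5k, had an unadjusted p under 0.05. The smallest p was that of Pik3ap1, an adaptor of PI3K, at 17.4 and 13.2 CPM in DEX and 10.0 and 7.98 CPM in PBS (log2 fold change 0.76 ± 0.23, edgeR adjusted p = 0.999). It was followed by Inpp5k (log2 fold change -0.31 ± 0.12), Plekha2 (0.36 ± 0.16), Phlpp1 (0.37 ± 0.19) and Plcg2 (-0.24 ± 0.14), each with an edgeR adjusted p of 0.999. The 62 split into 31 below 0 and 31 above.

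The genes most like each of the 7 were those with the highest Pearson r of log2(CPM + 1) over 24 class-by-litter sums, among 9144 genes. These sums share litters, depth and free RNA, so the r is a description. For Inpp4b they were Ifrd1 (r = 0.94), Lat (0.93), an adaptor of antigen receptor signalling, and Med12l (0.92). For Inpp5d they were Coro7, Cerk and Baz1a (0.96 to 0.97), and for Pik3cd Gpsm3, Capza1 and Csk (0.95 to 0.97). Pik3r1 was most like Mat2a, Rps6ka5 and Smc5 (0.89 to 0.92), Pik3r3 like Cracr2b, Sh3bp4 and Tox3 (0.92 to 0.95), Pik3ip1 like Cd274, Lrmp and Snx20 (0.92) and Sgk3 like Ets1, Snrpa and Rasgrp2 (0.91 to 0.92).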

How the data were processed

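Sorted fetal lung cells of 2 DEX and 2 PBS litters were profiled in 1 RNA library with a hashtag library. The authors counted UMIs with Cell Ranger (7.0.0 in the matrix header; mm10 in the submitters' processing notes), and the deposited values are raw counts of UMIs per gene and barcode, with 4 hashtags in the same matrix. For intron counting and the annotation release nothing is stated, that is, not given in the sources used here. No other column of sample values was left aside.

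Barcodes with at least 200 genes and at most 5% mitochondrial UMIs were kept (10409 of 10648). Hashtags were assigned on all barcodes by HTODemux (Seurat 5.3.0, quantile 0.99), which gave 7268 singlets. It was run first on the passing barcodes (7242 singlets) and that call is kept as an alternative. Hashtag doublets (736) and barcodes with no tag (2405) were dropped, while doublets within a litter were not removed. The number of mothers follows the hashtags and the study's methods, although one legend states a smaller number.

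Clustering in scanpy 1.11.5 used log values per 10000 UMIs (2000 variable genes, 20 components, 15 neighbours, Leiden resolution 0.5), with the 7 genes, the pathway list, Gata3, Nr3c1, Il1rl1 and sex-linked and mitochondrial genes kept out. Clusters were named from marker lists, so names are rebuilt and can differ from the study's. A state or cluster counted as cycling at a mean share of 25% over 9 cycling markers, a limit set after the states were seen. Class and state levels need at least 20 cells a litter.

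Sums of UMIs per litter went into edgeR 4.0.16 and its quasi-likelihood F-test (TMM, filterByExpr, two-sided), with Benjamini-Hochberg adjustment over all genes tested and calls at an adjusted p under 0.05. SE is the log2 fold change over the square root of F. CPM are unscaled by TMM. The test was tested on simulated data. Alternatives were DESeq2 1.42.0, limma-voom (limma 3.58.1), other size factors, no filter, a hashtag ratio rule (10 UMIs or more and a 3-fold lead over the second tag), a 10% mitochondrial limit, no cycling cells, a replicate block, thinning to 2000 UMIs and each litter left out. Cells added by an alternative took the class of their 15 nearest neighbours. The genes named besides the 7 are the pathway genes called, the 5 with the smallest p in each contrast, the 3 most like each gene and the 5 leading genes of each cluster described. The 7 genes and all lists were chosen with earlier results of these data known.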

Additional observations from a re-analysis of the deposited data

Results flagged for a closer look

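Phlpp1 and Pik3r4, both from the pathway list, moved in opposite directions in the 2 classes, without overlap between the groups in either. In ILC2-like cells alone, both DEX litters lay below both PBS litters for 22.2% of all genes tested and above for 20.3%. The shares in basophil or mast-like cells were 18.0% and 12.8%. The share of all genes with opposite directions in the 2 classes was not computed, so nothing is read from these 2 genes as a count. Phlpp1, a phosphatase that acts on Akt, had a log2 fold change of -0.18 in ILC2-like cells (4.89 and 4.47 CPM in DEX, 5.08 and 5.57 CPM in PBS) and of 0.37 in basophil or mast-like cells (19.8 and 15.02 CPM in DEX, 13.9 and 13.0 CPM in PBS). Pik3r4, a regulatory subunit of the class III PI3K, had 0.31 in ILC2-like cells (11.3 and 10.0 CPM in DEX, 8.63 and 8.65 CPM in PBS) and -0.30 in basophil or mast-like cells (9.17 and 9.08 CPM in DEX, 10.7 and 12.0 CPM in PBS). None of these 4 values passed in its class, with edgeR adjusted p from 0.643 to 0.999, and the difference between the classes was not tested. Pik3r4 was chosen after its values were seen. No group had enough litters for a test of single outlying litters.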

How the results depend on the processing

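In ILC2-like cells, where the 7 genes were chosen, the log2 fold change of Inpp4b ran from -0.97 (without DEX-2) to -0.71 (equal weights for the states or without DEX-1). No count of calls is given for the 7 genes there, since that contrast chose them. The count of other pathway genes called in ILC2-like cells was 1 and fell to 0 with DESeq2, limma-voom, without cycling clusters, with cells thinned to 2000 UMIs and without the smallest ILC2 state, was 3 with no filter (Sgk1, Pik3cg and Pip5k1b), and ran from 0 to 2 with 1 litter left out. In basophil or mast-like cells none of the 7 genes and none of the pathway genes was called under any of the 14 alternatives. With 1 litter left out, log2 fold changes there changed sign for Pik3cd (-0.28 to 0.10), Pik3ip1 (-0.63 to 0.24) and Sgk3 (-0.17 to 0.90). The cause of these changes was not tested. Over all genes, calls in ILC2-like cells were 247, against 112 with DESeq2, 104 after thinning, which tested fewer genes, 517 with no filter and 129 to 421 with 1 litter left out. In basophil or mast-like cells they were 0, against 8 with DESeq2, 88 with no filter and 0 to 64 with 1 litter left out.

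Litters share a replicate number across groups, but their deviations from the group means correlated at 0.08 in ILC2-like and -0.04 in basophil or mast-like cells, so the numbers were not taken as pairs. The replicate block gave 355 calls over all genes in ILC2-like cells and 0 in basophil or mast-like cells. With it, 1 pathway gene was called in ILC2-like cells, and none of the pathway genes or the 7 genes in the other class. Leaving out the smallest state and calling hashtags on passing barcodes only were chosen after seeing the data.

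With 2 litters per group the errors of Pik3r3, Sgk3 and Pik3ip1 rest on 45 to 818 UMIs a class, and differences of their size could not be told from the spread between litters.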

Other observations

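Some of the listed pathway genes named for the DEX comparison also differed in level between the 2 classes, while others, such as Plekha2, overlapped. Gab2, an adaptor of the mast cell IgE receptor, was at 272 ± 25.6 CPM (SD, n = 4 litters) in basophil or mast-like cells and 13.1 ± 3.56 CPM in ILC2-like cells. Pik3cg was at 40.1 ± 2.93 CPM in basophil or mast-like and 15.8 ± 5.16 CPM in ILC2-like cells, and Sgk1 at 97.2 ± 15.96 against 49.9 ± 10.5 CPM. Pip5k1b was the reverse, at 8.96 ± 2.19 CPM in basophil or mast-like and 20.2 ± 4.98 CPM in ILC2-like cells, and its litter ranges did not overlap. Pik3ap1 was at 12.1 ± 4.09 CPM in basophil or mast-like and 3.53 ± 1.03 CPM in ILC2-like cells. Classes were made from the same cells, so these levels are a description.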
